A study of Mus musculus with 2 samples.

Results

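The 10 genes described here, Fkbp11, Fkbp2, Sdf2l1, Manf, Creld2, Dnajb9, Dnajb11, Dnajc3, Hspa5 and Hsp90b1, encode proteins that fold other proteins in the endoplasmic reticulum (ER) and whose transcripts are known to be induced by ER stress. They were taken by symbol from the 27998 genes of the count tables, and all 10 were present. Their levels by islet cell type, their difference between diets and their co-variation among beta cells were known when they were chosen, so those values are given as a description, without a test.

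The study profiled single cells of pancreatic islets from C57BL/6J wild-type mice on chow or on a 60% high-fat diet (HFD), each given for 6 weeks from weaning. The islets of 4 chow mice were pooled into 1 library and those of 5 HFD mice into another, and no cell can be tied to a mouse. Islets of both diets were picked by hand and kept overnight in RPMI medium with serum. They were then dispersed with 0.05% trypsin for 10 minutes, passed through a 35 µm mesh and captured in droplets with a kit that tags the 3′ end of each transcript. Sex was not given in the labels used here, nor any age beyond the weeks on diet. With 1 library per diet no p-value, standard error between mice or test of a diet effect can be had. Every interval below is a 95% interval that covers counting error only, and a difference between the libraries can come from the diet, the mice, the isolation or the library, which cannot be told apart.

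Beta cells synthesise proinsulin at a high rate, and it is threaded into the ER, cut, cross-linked and folded there before it is packed into granules. When unfolded proteins accumulate, the sensors IRE1, ATF6 and PERK start the unfolded protein response, and the transcription factors XBP1 and ATF6 raise the transcription of chaperones. The same response is active at a low level in unstressed secretory cells.

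The 10 genes fill distinct places in this machinery. Hspa5 (ENSMUSG00000026864) encodes BiP, the Hsp70 chaperone of the ER and its main brake on the stress sensors, and Hsp90b1 (ENSMUSG00000020048) encodes Grp94, the Hsp90 chaperone of the ER. Dnajb9 (ENSMUSG00000014905), Dnajb11 (ENSMUSG00000004460) and Dnajc3 (ENSMUSG00000022136) encode the J proteins ERdj4, ERdj3 and P58IPK, which hand clients to BiP and drive its ATPase cycle. Sdf2l1 (ENSMUSG00000022769) encodes a partner of ERdj3 that keeps BiP clients soluble. Manf (ENSMUSG00000032575) encodes a small ER protein that binds BiP, can be secreted and is needed to maintain beta cell mass in mice. Creld2 (ENSMUSG00000023272) encodes an ER protein with EGF-like repeats. Fkbp2 (ENSMUSG00000056629) and Fkbp11 (ENSMUSG00000003355) encode FK506-binding prolyl isomerases of the ER, and Fkbp11 is anchored in the membrane.

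The letters in front of these genes are shown first, because the ER stress response element (ERSE), a CCAAT box and a CCACG box with 9 open bases between them, is the classical landing site for ATF6 and XBP1 with NF-Y. RefSeq promoter sequences on GRCm38.p6, reaching from 250 bases before to 50 bases after a transcript start, were in hand for 9 of the 10 genes, with 12 starts. Manf had no entry. Searched on both strands, the ERSE was present in 39 of 32851 promoters, or 0.119%. That share counts promoters, whereas the matches below are counted by gene, with 12 starts for 9 genes. These genes were chosen as known to be induced by ER stress, so matches among them are a description and not a result. Of the 9 genes, 4 held an exact match: Hspa5 at bases -65 to -47 from the start, Hsp90b1 at -212 to -194 and again at -107 to -89, Dnajc3 at -105 to -87 and Creld2 at -126 to -108. The second Hsp90b1 match and the Creld2 match lie on the strand opposite to the gene. The windows of 150 bases directly before the start are printed with the ERSE in capitals. They lie at chr2:34771940-34772089 on the plus strand for Hspa5, chr10:86705445-86705594 on the minus strand for Hsp90b1, chr14:118937782-118937931 on the plus strand for Dnajc3 and chr15:88819496-88819645 on the plus strand for Creld2.
Hspa5: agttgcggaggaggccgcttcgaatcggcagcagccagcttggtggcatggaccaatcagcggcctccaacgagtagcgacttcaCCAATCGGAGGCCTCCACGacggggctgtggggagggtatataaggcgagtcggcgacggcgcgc
Hsp90b1: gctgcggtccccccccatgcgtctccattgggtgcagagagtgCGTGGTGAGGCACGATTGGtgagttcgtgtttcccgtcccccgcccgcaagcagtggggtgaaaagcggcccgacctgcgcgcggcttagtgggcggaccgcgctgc
Dnajc3: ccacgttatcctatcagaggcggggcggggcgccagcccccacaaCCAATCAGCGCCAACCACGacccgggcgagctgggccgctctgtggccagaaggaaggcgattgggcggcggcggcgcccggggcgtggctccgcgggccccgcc
Creld2: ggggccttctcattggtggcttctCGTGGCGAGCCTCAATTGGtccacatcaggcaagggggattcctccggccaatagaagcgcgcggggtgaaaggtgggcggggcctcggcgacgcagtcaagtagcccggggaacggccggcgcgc

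Fkbp11 and Sdf2l1, the pair that differed most between the libraries in beta cells, held no ERSE in these windows. Their windows, with no capitals, lie at chr15:98728199-98728348 on the minus strand for the first of 2 Fkbp11 starts and at chr16:17132384-17132533 on the minus strand for Sdf2l1.
Fkbp11: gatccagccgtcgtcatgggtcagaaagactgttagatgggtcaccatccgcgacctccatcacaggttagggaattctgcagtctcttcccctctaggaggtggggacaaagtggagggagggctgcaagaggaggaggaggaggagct
Sdf2l1: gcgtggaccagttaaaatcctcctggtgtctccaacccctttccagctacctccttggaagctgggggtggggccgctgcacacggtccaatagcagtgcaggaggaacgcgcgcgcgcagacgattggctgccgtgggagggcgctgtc

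A relaxed ERSE, with the second box as CCANG, was in 0.314% of promoters and in the same 4 genes. The related element ERSE-II, ATTGG and CCACG with 1 open base between them, was in 0.0365% of promoters, and Dnajb11 held it at bases 8 to 18 after its start. That site is shown with 5 bases on each side, at chr16:22857847-22857867 on the plus strand.
Dnajb11: cggcgATTGGCCCACGcctgg

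The XBP1 element TGACGTGG was in 0.676% of promoters and in none of the 9 genes. Its core ACGTGG was in 8.31% of promoters and in Dnajb9, Dnajc3 and the second Fkbp11 start. These are matches of letters and do not show binding.

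The chow library held 6509 cell barcodes with 89292222 UMIs and the HFD library 4539 with 68544729. Cells were kept with at least 500 genes and at most 10% mitochondrial UMIs, which left 6387 and 4394, and 45 barcode sequences occurred in both libraries. Cells were typed by hormone share: beta where Ins1 and Ins2 made up at least 20% of UMIs, otherwise alpha with Gcg at 5%, delta with Sst at 1% or PP with Ppy at 15%. This gave 4574 and 3100 beta cells, 779 and 402 alpha cells, 468 and 388 delta cells, and 203 and 160 PP cells (chow and HFD). Among their other markers, Slc2a2 and Ucn3 were carried by beta, Ttr by alpha, and Hhex and Rbp4 by delta cells. Not every listed marker kept to its type. Etv1, a listed PP marker, was lower in PP (151 and 172 CPM) than in alpha (198 and 226) and delta cells (167 and 209). Pdx1, a listed beta marker, was higher in delta (63.4 and 74.7 CPM) than in beta cells (51.7 and 56.1). Delta cells also carried Ppy at 59310 and 68884 CPM, so the delta group includes cells with 2 islet peptides. Median depth was 14810 UMIs in chow and 16947 in HFD beta cells. Hormone transcripts took 60.5% and 59.8% of beta UMIs, 57.3% and 54.3% in PP cells, but 33.1% and 29.8% in delta and 29.0% and 30.8% in alpha cells. This bears on every level given as CPM, counts scaled to a common total of UMIs for each type and library.

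Delta cells carried the highest level of each of the 10 genes among the 4 endocrine types, in both libraries. Hspa5 stood at 651 CPM (627 to 676) in chow delta cells, against 302 in PP, 263 in alpha and 245 (241 to 248.8) in beta cells, and none of these neighbouring intervals overlapped. Manf stood at 634 CPM in chow delta cells, against 323 in PP, 301 in beta and 272 in alpha cells, with PP and beta cells overlapping. Fkbp11 stood at 130 CPM in chow delta, 53.4 in PP, 42.2 in beta and 20.7 in alpha cells. In HFD cells Fkbp11 kept delta (58.4) and PP (28.6) in front, but alpha cells (17.9) came before beta cells (9.48).

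**Figure D1:**
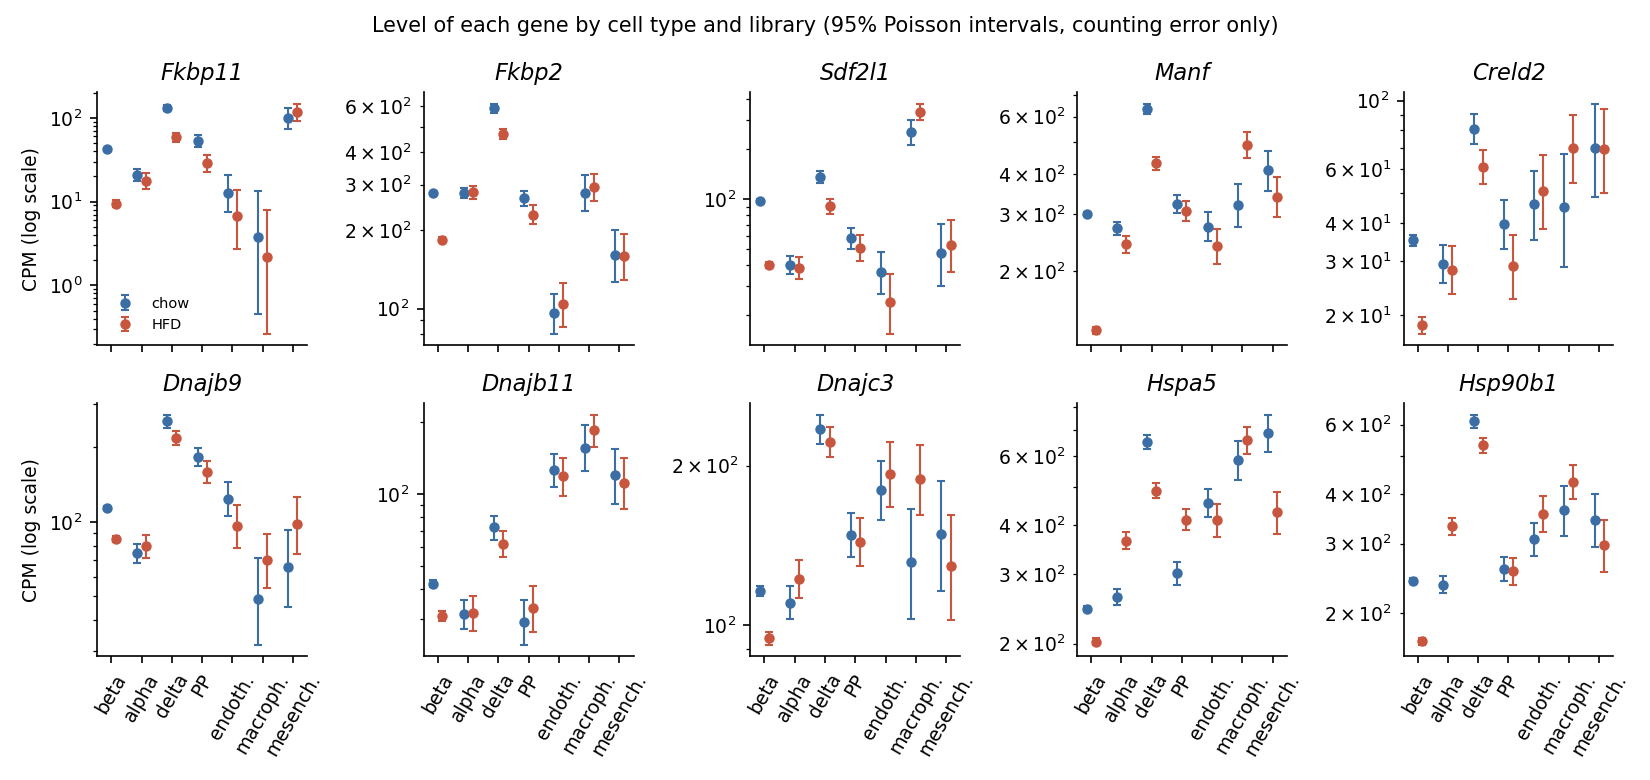
CPM (log scale) of each of the 10 genes in 7 cell groups of the chow (blue) and HFD (red) libraries; bars are 95% Poisson intervals of the summed count. Delta cells are highest among the 4 endocrine types in each panel, and the red beta point lies under the blue one in all 10.

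The order of the types depended on the hormone transcripts in the denominator. Over the 10 genes the delta level was a median 2.19 times the beta level in chow and 2.56 times in HFD cells. As CPM outside the hormone genes Ins1, Ins2, Iapp, Gcg, Sst, Ppy and Pyy, an alternative added after the data were seen, the medians were 1.29 and 1.46. On that scale Sdf2l1 was higher in beta than in delta cells of the chow library (0.823 times in delta), Dnajb9 was highest in PP cells of both libraries with overlapping delta intervals, and Manf and Hspa5 were highest in PP cells of the HFD library, Manf with an overlapping delta interval. Alpha cells were lowest for each of the 10 in chow on that scale, from 0.230 times the beta level for Sdf2l1 to 0.597 for Hspa5. Insulin in the other endocrine types was 3.65% to 6.26% of its share in beta cells, and beta RNA at that rate would supply at most 11.9% of any of the 10 genes there (Sdf2l1 in chow alpha cells).

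In beta cells each of the 10 genes was lower in the HFD library, Fkbp11, Sdf2l1, Manf and Creld2 the most. Ratios are given as log2 of HFD over chow CPM minus the median over all genes of that type with at least 50 summed counts, here 12382 genes whose median was 0.20. A gene is called lower at 1.5-fold or more on that scale. Of the 10 genes 8 were called lower and none higher, where 8.94% of all genes tested were called lower and 4.28% higher. The median of the 10 was -0.75, against 0 over all genes by construction. Because the members were chosen with this contrast in view, the count is not evidence about them.

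Fkbp11, Sdf2l1, Manf and Creld2 lay farthest from 0, followed by Fkbp2. Fkbp11 stood at 42.2 CPM in chow and 9.48 in HFD beta cells, from 3018 and 501 counts. The chow level was 4.45 times the HFD level, a relative log2 ratio of -2.35 (-2.49 to -2.22), and only 15 of the 12382 genes lay lower. Sdf2l1 stood at 97.2 and 40.001 CPM, a ratio of -1.48 (-1.55 to -1.41), with 67 genes lower. Manf stood at 301 and 132 CPM, a ratio of -1.39 (-1.43 to -1.35), with 87 genes lower. The Creld2 level was 35.1 CPM in chow and 18.6 in HFD, a ratio of -1.12 (-1.23 to -1.01). Fkbp2, an isomerase like Fkbp11 but present at a higher count, differed less, at 277 and 184 CPM and a ratio of -0.79 (-0.83 to -0.76). For none of these 5 genes did the counting intervals of the libraries overlap.

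Over all beta cells the BiP and Grp94 chaperones and the J proteins differed less. The order of Fkbp2 and Hsp90b1 turned in some groups of beta cells, as in the third with the most UMIs (-0.86 and -0.92). The Hspa5 level was 245 CPM in chow and 202 in HFD beta cells, a ratio of -0.48 (-0.51 to -0.44). The Hsp90b1 level was 242 and 170 CPM, a ratio of -0.71 (-0.75 to -0.67). Among the J proteins Dnajb9 stood at 114 and 85.4 CPM (-0.62), Dnajb11 at 42.2 and 31.0 CPM (-0.65) and Dnajc3 at 116 and 94.2 CPM (-0.50). The call passes between Dnajb9, just inside, and Dnajc3, just outside, since 1.5-fold is 0.585 on the log2 scale. The 4 genes with an exact ERSE ran from -1.12 (Creld2) to -0.48 (Hspa5), and the 5 others in the promoter table from -2.35 (Fkbp11) to -0.62 (Dnajb9), so the ranges overlapped.

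**Figure D2:**
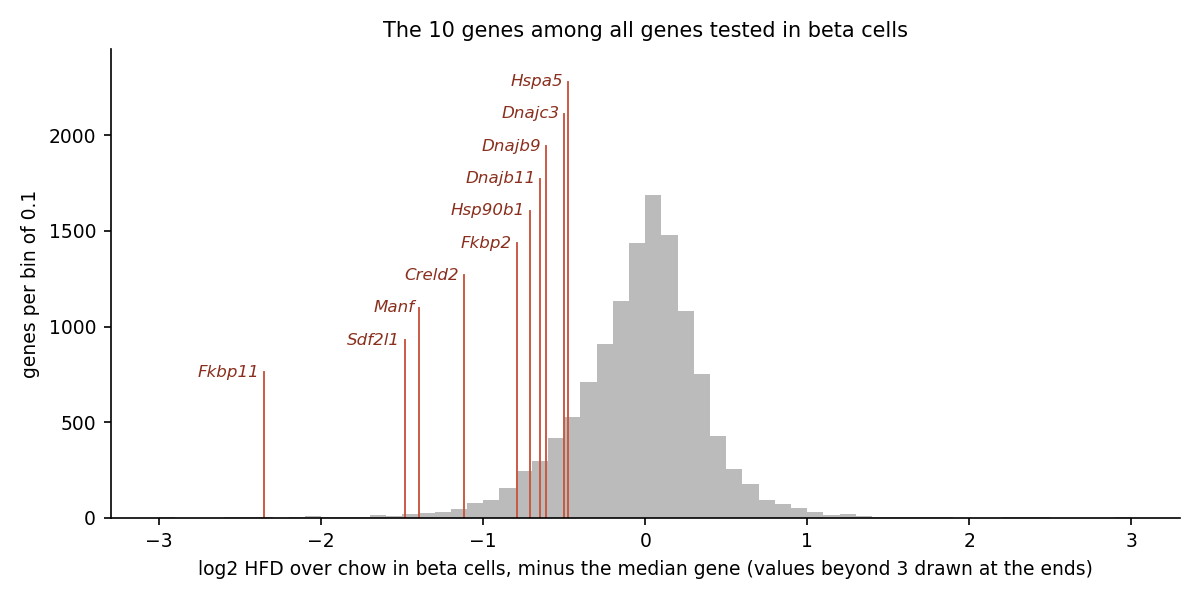
Number of genes (vertical axis) by log2 HFD over chow ratio in beta cells relative to the median gene (horizontal axis), for the 12382 genes tested, with a line for each of the 10 genes. All 10 lie left of 0, from -2.35 for Fkbp11 to -0.48 for Hspa5; the line heights only spread the labels.

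The centring bears on these calls. On CPM without centring 5 of the 10 were called lower (Fkbp11, Sdf2l1, Manf, Creld2 and Fkbp2), where 4.44% of all genes were, and the share of all calls in beta cells that were lower was 29.8%, against 67.6% with centring. Without hormone genes and without centring the share was 34.4%, again with 5 of the 10 lower, where 4.86% of all genes were. All 10 ratios stayed below 0 in beta cells under each of the 25 alternatives tried, Fkbp11 between -2.69 and -1.80 and Manf between -1.57 and -1.19.

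The other endocrine types did not share one pattern. In delta cells all 10 genes were below 0 with a median of -0.45, and 3 were called lower and none higher, where 2.43% of 8842 genes were called lower and 4.8% higher: Fkbp11 (130 and 58.4 CPM, -1.24), Sdf2l1 (136 and 90.2 CPM, -0.67) and Manf (634 and 431 CPM, -0.64). Delta Hspa5 stood at 651 and 490 CPM (-0.49) and delta Hsp90b1 at 611 and 532 CPM (-0.28). In PP cells 1 of 10 was called lower and none higher, where 4.97% of 5854 genes were called lower and 8.18% higher. It was Fkbp11, at 53.4 and 28.6 CPM, a ratio of -0.99 (-1.42 to -0.58) on 161 and 71 counts. PP Hspa5 lay the other way, at 302 and 413 CPM (0.36, 0.23 to 0.49).

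In alpha cells none of the 10 was called lower or higher, where 4.91% of 9122 genes were called lower and 4.52% higher, and the median was 0.01. Alpha Fkbp11 stood at 20.7 and 17.9 CPM (-0.21, -0.63 to 0.19), with overlapping intervals, and its ratio turned to 0.18 without cells that met a second hormone rule and to 0.04 with cells thinned to 5000 UMIs. Alpha Sdf2l1 stood at 40.2 and 38.8 CPM (-0.04). The 2 large chaperones were higher in HFD alpha cells: Hspa5 at 263 and 366 CPM (0.48, 0.38 to 0.58) and Hsp90b1 at 236 and 332 CPM (0.49, 0.39 to 0.60). Neither passes 1.5-fold. Their counting intervals lie above 0 in alpha and below 0 in beta and delta cells, and the difference between types was not tested for want of replicate libraries.

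**Figure D3:**
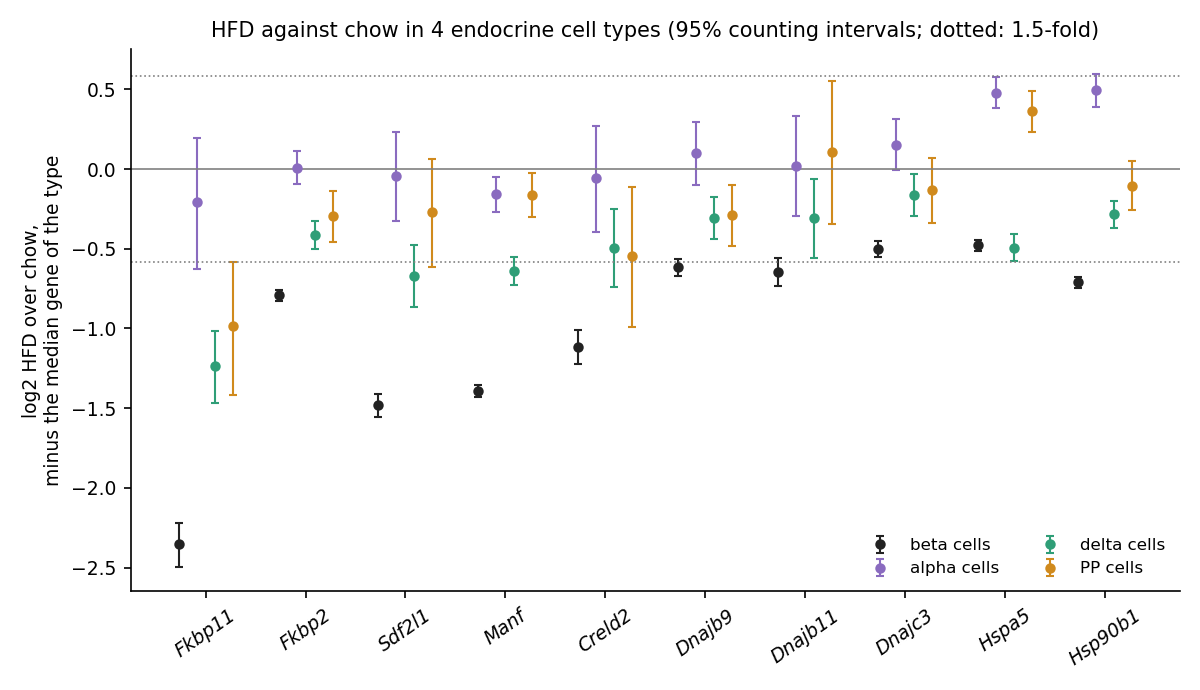
Log2 HFD over chow ratio relative to the median gene of the type (vertical axis) for each of the 10 genes in beta (black), alpha (purple), delta (green) and PP (orange) cells; bars are 95% counting intervals and dotted lines mark 1.5-fold. Fkbp11 is below 0 in beta, delta and PP cells, its alpha interval crosses 0 and its alpha ratio turned to 0.18 without cells that met a second hormone rule, while Hspa5 is at 0.48 in alpha and 0.36 in PP cells.

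The other ER lists in beta cells all had medians below 0, from near 0 to -0.70, and differed in how many of their genes were called. These lists were drawn up with results of these data known. In beta cells 8.94% of all genes tested were called lower and 4.28% higher. The counts below for the sensors, the lectin chaperones and ER-associated degradation lie not far from the lower share. The sensors and transcription factors differed little: 2 of 15 were called lower (Creb3 and Atf6b) and the list's median was -0.10. At its high end lay Mbtps2 (0.26) and Mbtps1 (0.22). Xbp1, whose spliced product drives much of the folding program, stood at 102 and 101 CPM (-0.21). Atf6 stood at 24.3 and 28.6 CPM (0.03) and Atf4, the effector of PERK, at 144 and 131 CPM (-0.34). A 3′ count does not separate spliced from unspliced Xbp1. Of 16 targets of the integrated stress response, the arm downstream of Atf4, 11 were called lower and the median was -0.70. Phgdh (-1.49) and Trib3 (-1.27) lay lowest, and Sesn2 (0.02) and Ppp1r15a (-0.24) lay at the high end. Ddit3, which encodes CHOP, stood at 32.0 and 25.2 CPM (-0.55).

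Relative to the median gene, all 28 tested genes of the translocon, signal peptidase and oligosaccharyltransferase lay below 0. Of them 13 were called lower, where 8.94% of all genes tested were, led by Ssr4 (500 and 228 CPM, -1.33) and Dad1 (437 and 207 CPM, -1.28). Before centring the direction turned for Sec62 (129 and 135 CPM) and Stt3b (24.2 and 26.9 CPM), the 2 nearest to 0. Of 18 disulfide isomerases and oxidases 6 were called lower. Among them was Pdia6 at 148 and 85.3 CPM (-0.998), a thiol isomerase that acts on proinsulin and on the stress sensors. Prdx4 stood at -0.84, and Tmx3 (0.17) and Dnajc10 (0.03) lay at the high end. Calr, the calcium-binding lectin chaperone, stood at 253 and 167 CPM (-0.80) and was the single call among 8 lectin chaperones and glycan enzymes. In that list Prkcsh stood at -0.42, Uggt1 at -0.01 and Man1b1 at 0.12. Of 14 further isomerases, J proteins and exchange factors 3 were called lower, Ppib (93.2 and 40.1 CPM, -1.42), Sil1 and Sdf2. Cdnf, the close relative of Manf, was called higher on 41 and 65 counts (0.89), and Dnajb12 stood at 0.30. Of 19 genes of ER-associated degradation 3 were called lower, Vimp (-1.06), Edem2 (-0.66) and Derl1. Herpud2 (0.16) and Edem3 (0.02) lay at the high end. In alpha cells none of the sensors, disulfide isomerases, lectin chaperones or translocon genes was called lower. Their list medians were 0.07, 0.04, 0.06 and 0.11. Nor was any of the degradation genes or of the further isomerases, J proteins and exchange factors. Among those Edem3, Hyou1 and Dnajc25 were called higher, and Hyou1 also in PP cells. Of 13 integrated stress response targets tested in alpha cells 2 were lower and 1 higher, and of 26 cytosolic chaperones 3 were lower. Over all genes in alpha cells 4.91% were called lower and 4.52% higher.

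Other measures moved with the libraries. Hspa1a, the inducible cytosolic Hsp70, stood at 62.2 and 5.38 CPM in beta cells (-3.73), farther from 0 than any of the 10 genes, and its co-chaperone Dnajb1 at 46.1 and 16.0 CPM (-1.73). Hspa1a differed likewise in alpha (-2.998), delta (-2.76) and PP cells (-2.17), and Hspa1b, a near-identical copy, cannot be cleanly separated from it. Of the 27 cytosolic chaperones tested in beta cells 9 were called lower, where 8.94% of all genes were. Fkbp5 (0.25) and Hsph1 (0.02) lay at the high end. Among 3047 chow and 2964 HFD beta cells with no UMI of Hspa1a or Hspa1b (66.6% and 95.6% of beta cells), Fkbp11 stood at 33.2 and 9.26 CPM (-1.97), Sdf2l1 at -1.35, Manf at -1.21 and Hspa5 at -0.37. In these cells 5 of the 10 were called lower, where 6.19% of 11982 genes were. The acinar marker list, which stands for the other cell type of the pancreas rich in ER, summed to 15.5 CPM in chow and 4.18 in HFD beta cells. The list of B and plasma cell markers summed to 13.3 and 26.1 CPM, nearly all of it Cd79a (12.9 and 25.7 CPM). Other lists in beta cells summed to 308 and 165 CPM for ductal, 47.4 and 76.3 for macrophage, 26.5 and 34.9 for endothelial and 11.5 and 42.0 for mesenchymal markers. The part of these markers in the results was not tested.

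The ratios differed with depth in size, not in sign. In the beta cells with the most UMIs (over 18873 per cell) all 10 were called lower, where 11.8% of 11437 genes were, and the median was -0.89. In those with the fewest (up to 12158) 6 were called lower, where 7.62% of 10033 genes were, the median was -0.65 and Hspa5 stood at 237.0 and 236.8 CPM before centring. Within the chow library Fkbp11 itself was 60.3 CPM in the deepest beta cells and 26.5 in the shallowest, against 11.2 and 6.67 CPM in HFD. Depth per cell is a measure of the cells as well as of the sequencing, and its part was not tested.

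Cell by cell, the HFD distribution lay lower at the 10th percentile, the median and the 90th percentile. Each cell was thinned to 10000 UMIs, which kept 3525 chow and 2318 HFD beta cells and left out 1049 and 782. Summed over the 10 genes, chow beta cells held a median of 14 UMIs with the 10th and 90th percentiles at 7 and 25, and HFD beta cells a median of 9 with 4 and 16. Of HFD beta cells 14.2% lay above the chow median, where 44.2% of chow cells did because of ties, and 1.16% reached the chow 90th percentile, where 10.4% of chow cells did. Delta cells held medians of 31 (102 chow cells) and 26 (161 HFD cells), and alpha cells 13 and 14.

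**Figure D4:**
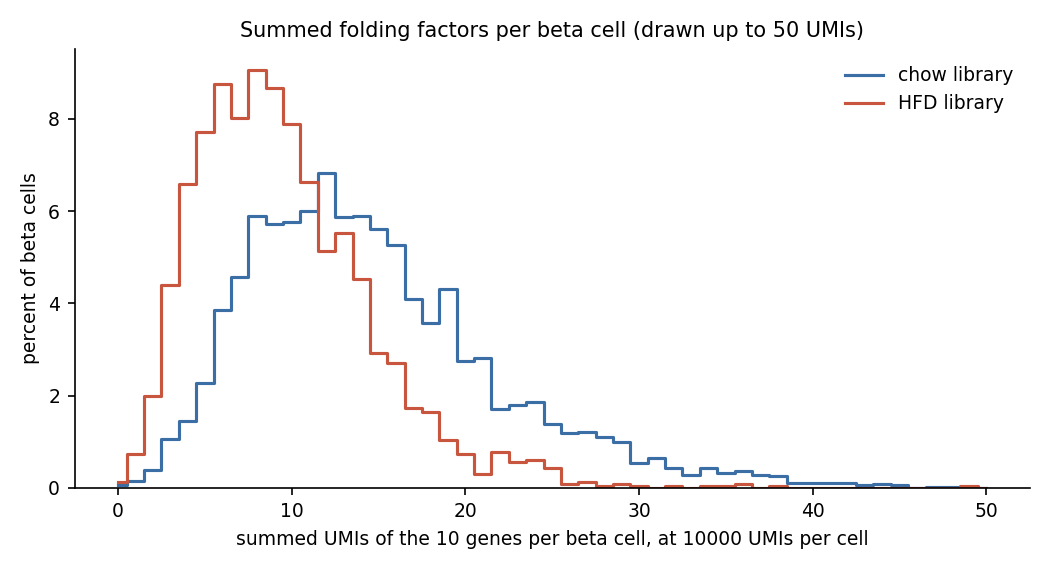
Percent of beta cells (vertical axis) by summed UMIs of the 10 genes per cell (horizontal axis), each cell thinned to 10000 UMIs; chow in blue, HFD in red. The HFD curve is narrower and sits lower, with a median of 9 against 14.

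The genes differed in how many cells carried them. At 10000 UMIs Fkbp11 was found in 26.7% (25.2 to 28.2) of chow and 8.07% (6.99 to 9.25) of HFD beta cells, and in 32.0% and 12.1% without thinning. The endothelial-like cells, where it is scarce, gave 9.38% of 32 and 10.0% of 30 cells at the same depth, and the macrophage-like cells 4.55% of 22 chow cells and 0 of 43 HFD cells, which allows up to 6.98%. Since the HFD beta share lies inside the wide endothelial-like interval (2.11 to 26.5), it is not read as a share of expressing cells. Sdf2l1 was found in 53.2% and 28.7% of beta cells (60.9% and 41.3% unthinned), Manf in 88.7% and 67.3% (88.9% and 74.97%) and Hspa5 in 85.4% and 80.4% (88.7% and 88.1%). Fkbp11 counts were the most concentrated: without thinning, the tenth of chow beta cells with the most held 61.1% of its counts. That share was 52.1% for Creld2 and 41.3% for Dnajb11, the nearest in level, 33.8% for Manf and 31.2% for Hspa5. A low count by itself raises this share. In chow delta cells Fkbp11 was found in 67.6% of 102 cells (57.7 to 76.6).

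Among beta cells of each library the 10 genes varied together. Each gene was set against the summed UMIs of the other 9 over the thinned cells, as Pearson's r of log2(UMIs + 1). In chow cells r ran from 0.18 (Dnajb11) through 0.35 (Hspa5) and 0.38 (Sdf2l1) to 0.44 (Manf), and in HFD cells from 0.10 (Dnajb11) to 0.29 (Hspa5). The 5033 other genes found in at least 10% of thinned beta cells of both libraries had a median r of 0.01 in chow and 0.03 in HFD cells, with 95th percentiles of 0.12 in both. All 45 pairs among the 10 were above 0 in both libraries. In chow the highest pair was Sdf2l1 with Manf (0.29) and in HFD Hspa5 with Hsp90b1 (0.18). The cells of a library share its preparation, sparse counts hold r down, and co-variation was among the reasons for choosing these genes, so these values describe the libraries only.

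Cells sorted into 5 equal groups by the other 9 genes show how far each gene swings. Fkbp11 had the widest range in chow, 0.125 UMIs per cell in the lowest group and 0.953 in the highest, which is 7.64 times. In HFD cells it went from 0.034 to 0.192, or 5.57 times. Sdf2l1 spanned 4.14 times in chow and 3.04 times in HFD, Creld2 3.69 and 3.29, Manf 2.82 and 2.40, and Hspa5 2.43 and 2.18. Fkbp2 had the narrowest range in chow, 1.81 times, and stood at 2.004 in HFD. Over the 10 genes Spearman's rho between this range and the HFD ratio was -0.65 with chow ranges and -0.72 with HFD ranges. These are 10 genes of the same 2 libraries, not independent points. The diet ratios and the co-variation were known when the genes were chosen, so rho describes these genes only and is not evidence of a link. Median depth before thinning rose with the sorted groups from 15495 to 19008 UMIs in chow. In HFD it did not rise steadily, at 19499 in the lowest, 19027 in the middle and 20225 in the highest group. Mitochondrial UMIs went from 3.41% to 2.41% in chow and from 3.33% to 2.94% in HFD. Their part was not tested.

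**Figure D5:**
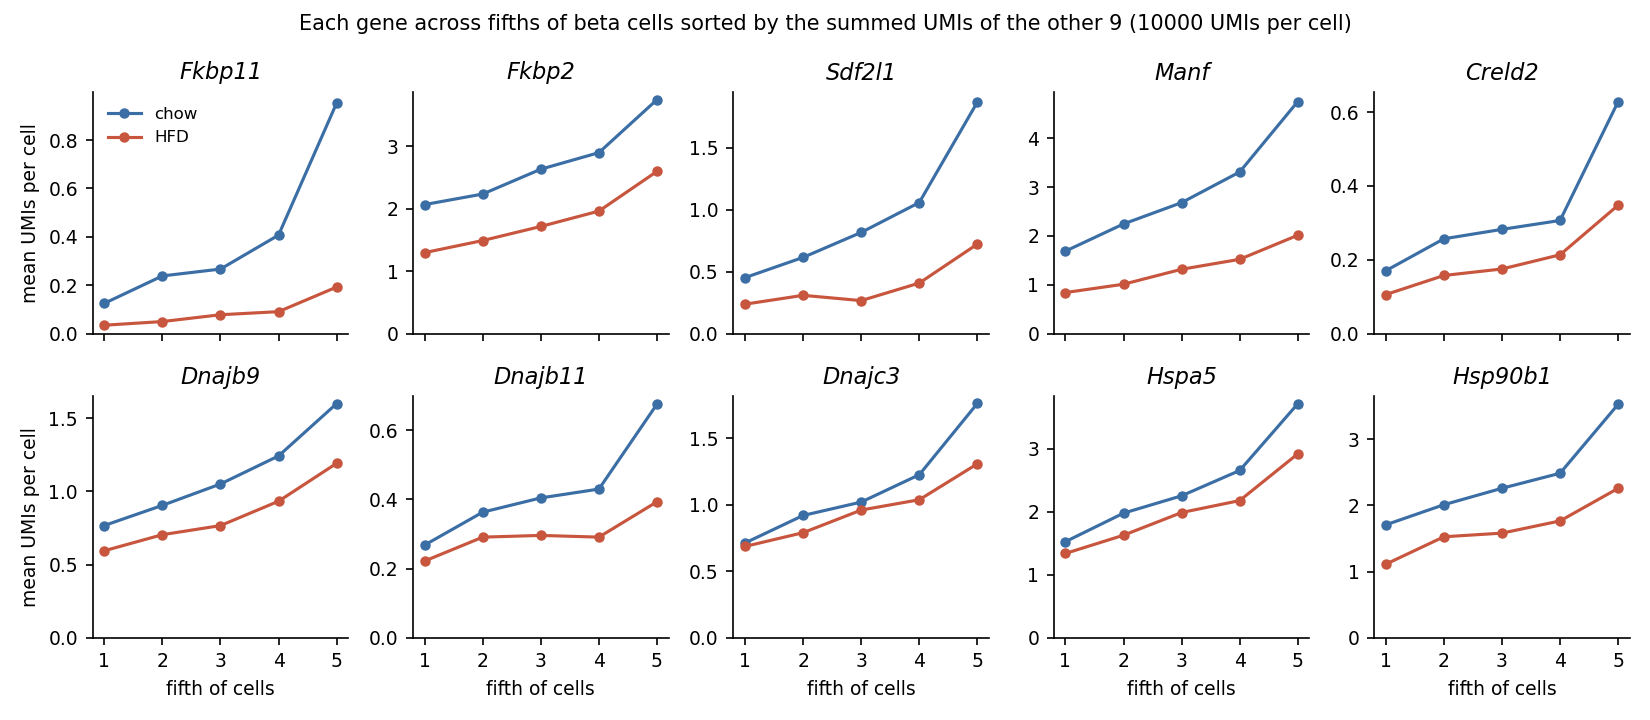
Mean UMIs per cell (vertical axis, each cell thinned to 10000 UMIs) of each of the 10 genes in beta cells sorted by the summed UMIs of the other 9 into 5 groups (horizontal axis); chow in blue, HFD in red. Every gene is higher in the last group than in the first in both libraries, and the blue line lies above the red throughout.

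The genes most like the 10 in beta cells included 5 that admit proteins to the ER or modify them on entry. By the mean r over both libraries they were Sec61g (0.38 in chow and 0.36 in HFD), a translocon subunit, Rpl36al (0.32 and 0.36), a ribosomal protein, Sec61b (0.35 and 0.31), Calr (0.36 and 0.29), Pdia6 (0.38 and 0.23), Ostc (0.32 and 0.26), Selk (0.32 and 0.24), Ssr2 (0.33 and 0.22), Spcs2 (0.30 and 0.24) and Nme1 (0.32 and 0.21). Of 28 translocon, signal peptidase and oligosaccharyltransferase genes 17 ranked among the 100 most alike. Among the regulators, Xbp1 had r of 0.06 and 0.12 (rank 437 of 5033), Atf6 0.04 and 0.07, and Atf4 0.11 and 0.21 (rank 83). The least alike gene was Ins2 (-0.15 and -0.31), the main product of the cell. Ins2 stood at 361331 and 333017 CPM. In cells thinned to a fixed total, so large a share can by itself lower r with all other genes. Its part in these values was not tested. From the lowest to the highest group of chow cells Ins2 stood at 3752 and 3467 UMIs per cell, a ratio of 0.924, while Ins1 stayed at 1587 and 1600. In HFD cells both were lower in the highest group, Ins2 at 3724 and 3060 (0.822) and Ins1 at 1951 and 1834 (0.940).

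Of the 10 genes Fkbp11 differed most between beta cells low and high in Cd63. Cd63, a granule and lysosome tetraspanin, stood at 894 and 317 CPM in beta cells (-1.70). From the beta cells with the least to those with the most Cd63, in 3 equal groups, Fkbp11 was 2.56 times higher in chow and 2.31 times in HFD. Creld2 was 1.76 and 1.41 times higher, Manf 1.52 and 1.21, Hspa5 1.07 and 1.02, and Dnajb9 0.985 and 0.848. The 228 chow and 59 HFD beta cells with at least 5 UMIs of Pdyn, the prodynorphin gene, had Fkbp11 at 99.95 and 31.4 CPM, against 34.3 and 8.40 CPM in the 3627 and 2670 with none. Fkbp11 was lower in HFD in both groups, with ratios of -1.91 and -2.20. These groups were added after the data were seen.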

How the data were processed

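The authors deposited 1 table of raw, whole-number UMI counts per library, with gene and barcode lists. Per the submitters' processing notes, Cell Ranger 2.1.0 was used. The build of the reference genome is not given in the sources used here. From these counts, cells were filtered and typed as stated in the report, and counts were summed by type and library, as CPM. Ratios had 0.5 counts added to each sum. Poisson intervals were used for sums, conditional binomial ones for ratios and Clopper-Pearson ones for shares. Cells were thinned with a fixed seed (Python 3.11.15, numpy 2.4.6, scipy 1.17.1); TMM factors came from edgeR 4.0.16, with no count test. No doublet was removed: Scrublet's automatic threshold marked 3 and 1 cells, too few to use, and 81 and 74 beta cells met a second hormone rule. The ratio step was tested on simulated data.

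The members and all lists were chosen with earlier results of these data known. Named genes were the 10 members, the 2 lowest and 2 highest of each list in beta cells with at least 100 counts, a short set (Xbp1, Atf6, Atf4, Ddit3, Cd63, Hspa1a, Dnajb1) and the 10 genes most like the members, predicted genes left out. Pdyn, Ins1, Ins2, Ssr2, Sdf2 and others outside that rule were named after their values were seen. Endothelial-like, macrophage-like and mesenchymal-like cells are the remaining cells with at least 5 UMIs of that class's markers and the most of that class, a rule set after the data were seen.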

Additional observations from a re-analysis of the deposited data

Results flagged for a closer look

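Hspa5 and Hsp90b1 differed between the diet libraries in opposite directions in different endocrine types, with counting intervals on opposite sides of 0. The relative log2 ratio of Hspa5 was -0.48 in beta and -0.49 in delta cells, but 0.48 in alpha and 0.36 in PP cells. That of Hsp90b1 was -0.71 in beta and -0.28 in delta cells, but 0.49 in alpha cells. Each type has 1 library per diet, so the difference between types was not tested. Over the alternatives tried, Hspa5 ran from 0.42 to 0.51 and Hsp90b1 from 0.38 to 0.56 in alpha cells, and Hspa5 from 0.30 to 0.46 in PP cells. In beta cells Hspa5 ran from -0.63 to -0.19 and Hsp90b1 from -0.92 to -0.39. In delta cells they ran from -0.51 to -0.41 and from -0.30 to -0.20. The -0.19 is from the beta cells with the fewest UMIs, where Hspa5 stood at 237.0 and 236.8 CPM before centring.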

How the results depend on the processing

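No paired analysis was possible because each diet has 1 library. No result of a called gene reversed. The 8 of 10 genes called lower in beta cells became 5 on CPM without centring, where 4.44% of all genes were. They became 5 with hormone genes left out and centring dropped together, where 4.86% of all genes were. In cells with no Hspa1a or Hspa1b UMI they became 5, where 6.19% of all genes were. They became 5 in the third of cells with the lowest insulin share and 4 at a 2-fold call. The median beta ratio of -0.75 became -0.55 on CPM without centring, -0.58 with both of those changes, -0.70 with cells weighted equally, -0.69 with cells thinned to 5000 UMIs and -0.79 with the beta rule at 40% insulin. It was -0.89 and -0.65 in the cells with the most and fewest UMIs, -0.80, -0.82 and -0.62 in the highest, middle and lowest insulin share, -0.62 with no Hspa1a or Hspa1b UMI and -0.70 with no Pdyn UMI. The 3 delta calls became 2 on CPM without centring, where 1.73% of all genes were called lower. They became 6 at a looser call and 1 at 2-fold. The PP call became 2 with median-of-ratios factors, where 6.90% of all genes were called lower. It became 2 with cells weighted equally, 2 with no gene minimum, 2 at the looser call and 0 at 2-fold. Where no share of all genes stands beside a count here, that share is not given, so the count is not read as a result about these genes. The delta to beta median moved from 2.19 to 1.29 in chow and from 2.56 to 1.46 in HFD without hormone UMIs. Of the members' single values under the alternatives, 144 of 250 in beta, 126 of 130 in alpha, 130 of 130 in delta and 129 of 130 in PP cells moved by less than their counting interval. The share of all calls that were lower went from 33.6% to 20.03% in delta and from 37.8% to 20.9% in PP cells on CPM without centring, and to 52.6% in PP cells with median-of-ratios factors. Median r of the 10 genes among beta cells, each averaged over both libraries, was 0.26, 0.25 outside hormone UMIs and 0.25 by rank. By library the median was 0.30 in chow and 0.21 in HFD. Outside hormone UMIs r fell for every one of the genes in HFD, for Hsp90b1 from 0.25 to 0.17, and rose for most in chow. With 1 library per diet, depth bounds counting error only, and low counts limit Fkbp11, Creld2 and Dnajb11 in PP cells most.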

Other observations

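Over all 7 cell groups delta cells stayed highest in CPM in both libraries for Fkbp2, Hsp90b1, Dnajb9 and Dnajc3, while Sdf2l1 and Dnajb11 were highest in macrophage-like cells of both libraries. Sdf2l1 stood at 251 CPM (211 to 298) in the 55 chow and 335 (299 to 375) in the 71 HFD macrophage-like cells, above its 136 in chow delta cells. Macrophage-like cells held Manf at 321 and 492 CPM, with intervals that did not overlap, in the direction opposite to beta cells. Fkbp11 was nearly missing from them, at 3.75 and 2.19 CPM on 2 counts each, and beta RNA at the rate set by insulin would supply 44.1% of the chow value. In the 51 chow and 63 HFD mesenchymal-like cells Fkbp11 stood at 98.9 (72.9 to 131) and 118 CPM (92.0 to 149), so it was not lower in HFD there. Mesenchymal-like cells held Hspa5 at 686 and 431 CPM, with intervals that did not overlap. They also carried the duct marker list at 8054 and 9319 CPM, nearly all Spp1, and the endothelial list at 2475 and 949 CPM. Their mesenchymal list summed to 17961 and 23766 CPM, of which Mgp made up 15239 and 20686. The identity of these cells is not settled by these markers, and their endothelial marker level differed between the libraries. The part of that difference in their Hspa5 and Fkbp11 values was not tested. In the 167 chow and 123 HFD endothelial-like cells Dnajb11 stood at 126 and 118 CPM, above every endocrine type on that scale, and Fkbp11 at 12.9 (7.49 to 20.6) and 6.72 (2.70 to 13.9), with overlapping intervals.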
